A study of Mus musculus with 6 samples.

Results

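The genes described here encode splicing factors and heterogeneous nuclear ribonucleoproteins (hnRNPs), the proteins that bind pre-mRNA and remove its introns. They were chosen by name, as the genes whose symbol begins with Srsf, Hnrnp, Snrp, Sf3a, Sf3b or Prpf, and no measured value entered that choice. Of 23420 genes with values, 62 had such a symbol: 11 Srsf, 18 Hnrnp, 12 Snrp, 3 Sf3a, 5 Sf3b and 13 Prpf genes. On the log2 CPM scale (reads of a gene per M reads), -0.76 corresponds to about 10 reads. A value above -0.76 in at least 3 samples was required for testing. It was met by 60 of the 62 genes, all 60 of which were above that level in all 6 samples, and by 11233 of the 23420 genes. The other two, Srsf12 and Snrpn, are described with their families.

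B cells were purified with beads from spleens of WT BALB/c mice, aged 7 to 11 weeks, and cultured for 4 hours at 10 M cells per mL. The labels give 3 mice as the source of the stimulated cells and do not say whether the unstimulated cells came from those mice. There were 3 CpG-stimulated samples, which received CpG ODN 1826 at 10 μg/mL, and 3 unstimulated samples. CpG ODN 1826 is a synthetic DNA oligonucleotide that activates TLR9, an endosomal receptor for DNA. Replicates 1 and 2 of each group were labeled female and replicate 3 male. Whether samples with the same number came from the same mouse is likewise not given in the sources used here. If they did, the groups are paired by mouse, and the main fit, made without a block, leaves that pairing out. MRL/lpr samples were not analysed here.

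Introns are removed by the spliceosome, which is built anew on each intron from small nuclear ribonucleoproteins (snRNPs). U1 snRNP binds the 5' splice site, U2 snRNP binds the branch point, and the U4/U6.U5 tri-snRNP joins before the active site forms. Every snRNP except U6 carries a ring of Sm proteins around its RNA. SR proteins bind exons and recruit this machinery, whereas many hnRNPs repress splice sites or package the transcript, and the balance between them helps decide which exons are kept. In B cells the choice between membrane and secreted immunoglobulin heavy chain, and between IgM and IgD, is made at this level of RNA processing.

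The values carry an offset of 0.5 reads, and the level of a gene without reads corresponds to a common library of 17.8 M reads counted on genes. Quantile normalization by the authors gave the samples nearly equal distributions, so the depth of each is not in the values. The median over tested genes differed by 0.0043 between the groups. Markers chosen for B cells were above the filter in 7 of 7 cases, and those for T cells in 0 of 6 and for NK cells in 0 of 4. On a summed log2 CPM scale the B cell markers lay at 11.3 to 11.5 with CpG and 11.8 to 12.1 without. The myeloid list (3 of 5 above the filter, led by Emr1) lay at 3.27 to 3.92 against 2.71 to 3.68. The NK list lay at -0.40 to 0.44 against -3.07 to -2.64, and the list for plasmacytoid dendritic cells (2 of 3) at 4.73 to 4.97 against 4.02 to 4.13. The NK and dendritic lists, led by Klrb1c and Bst2, were separated by stimulation, and their part in the results was not tested. T cell markers overlapped between the groups, at -0.61 to 0.30 against -0.36 to 0.22. Of 4 neuronal markers 1 was above the filter, Map2, and the list lay at 0.014 to 1.06 against 1.06 to 1.39. Erythroid markers (5 of 6, with Hba-a1 at the level without reads) separated replicate 2, at 12.3 with CpG and 11.9 without, from the other samples at 8.63 to 9.29.

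Most of these splicing factor genes were higher after 4 hours with CpG, including those for most SR proteins and for most Sm and U1/U2 snRNP proteins. Of the 60 genes tested, 40 were higher in CpG-stimulated B cells at an FDR under 0.05 (limma, Benjamini-Hochberg adjustment over all 11233 genes), where 37.6% of all tested genes were higher. A further 11 were lower, where 36.7% of all tested genes were lower, and 9 did not pass. As percentages of the 60, these are 66.7% higher and 18.3% lower. The median log2FC was 0.47 with quartiles of 0.10 and 0.88, against a median of 0.0033 and quartiles of -0.62 and 0.65 over all genes tested. In bulk RNA, less RNA per cell and fewer cells that express a gene cannot be told apart.

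Changes were moderate in size. A log2FC over 1 was reached by 13 of the 60 genes, against 15.8% of all genes, and a log2FC under -1 by none of them, against 15.3% of all genes. The log2FC of 12 genes was within 0.2 of 0. The groups did not overlap in 44 genes that were higher and 13 that were lower, where this held for 39.1% and 38.6% of all genes tested, 77.7% in all. Standard errors of the log2FC ran from 0.054 to 0.15 with a median of 0.067, against a median of 0.1025 over all genes tested. The median unstimulated level was 7.34 for the 60 genes and 4.70 over all genes tested. These shares therefore compare genes of unlike level and precision. When each sample was left out in turn, 39 to 41 genes were higher and 9 to 12 lower.

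**Figure D1:**
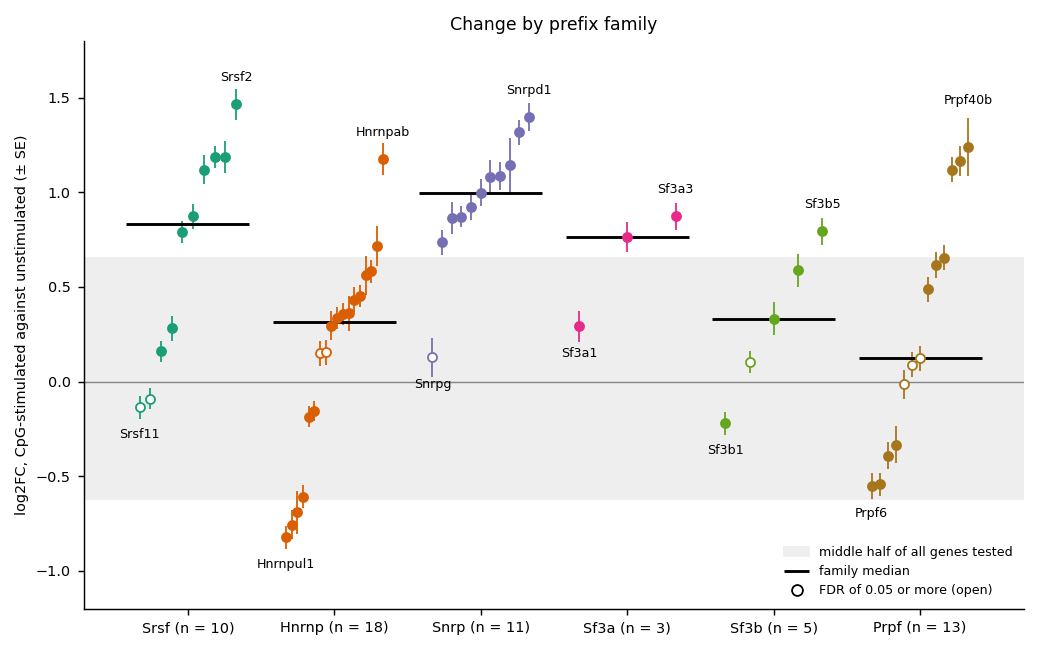
Log2FC of CpG-stimulated against unstimulated B cells for the 60 tested genes, 1 point per gene in 6 columns by symbol prefix, with the standard error as a bar, black lines at the family medians and a gray band from the lower to the upper quartile of all 11233 genes tested. Filled points had an FDR under 0.05; the Snrp and Srsf medians, 0.9967 and 0.83, lie above the gray band, as does that of Sf3a, 0.76, and points of the Srsf, Hnrnp, Sf3b and Prpf families extend to both sides of 0.

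The prefix families differed in their medians and in how far they were split. All 10 changed Snrp genes and all 8 changed Srsf genes were higher, and the median log2FC was 0.9967 for Snrp (n = 11) and 0.83 for Srsf (n = 10). The 3 Sf3a genes had a median of 0.76, and the 5 Sf3b genes one of 0.33. Hnrnp genes had 10 higher and 6 lower members with a median of 0.32 (n = 18). Prpf genes had 6 higher and 4 lower members with a median of 0.12 (n = 13). Shares higher and lower were 55.6% and 33.3% for Hnrnp and 46.2% and 30.8% for Prpf genes. Over all genes tested they were 37.6% and 36.7%. Members are not replicates of a family, so the families were not tested against each other. Snrp genes had the highest median in each of the 3 replicate numbers, whereas Srsf genes came above Sf3a genes in replicate 1 and below them in replicates 2 and 3. The medians of the CpG minus unstimulated differences for replicates 1, 2 and 3 were 1.01, 0.99 and 0.90 for Snrp genes. They were 0.95, 0.72 and 0.82 for Srsf genes, and 0.67, 0.73 and 0.89 for Sf3a genes. For Hnrnp genes they were 0.26, 0.22 and 0.34.

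Members that started lower tended to have the larger log2FC, with a Spearman coefficient of -0.39 between unstimulated level and log2FC across the 60 genes. Over all tested genes it was -0.17. Both are given as a description, since the unstimulated level is part of the log2FC and genes share the same 6 libraries. The 9 Snrp and Srsf genes with a log2FC over 1 made up 42.9% of their 21 tested members. Outside these families 4 of 39 genes, or 10.3%, passed 1, with 22 higher and 11 lower and a median of 0.33.

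To show what stands in front of these genes, whichever way they changed, promoter sequences were taken from RefSeq (GRCm38.p6, 300 bases around each start site, most of them upstream). They were at hand for 53 of the 60 genes, with 70 promoters in all. Known promoter elements were searched on both strands by their letters: the CCAAT box (CCAAT), an ETS site (CCGGAAG), and an E-box (CACGTG). Searched in the same way were the GC box with the letters GGGCGG, the TATA box with the letters TATAAA, and the sites of the factors YY1 (the letters AAGATGGC), CREB (the letters TGACGTCA, called CRE), NRF1 (the letters GCATGCGC) and NF-kB (the letters GGANTTTCC). None of these 9 strings contains another, although neighboring matches can overlap. CCAAT stood in 50.0% of the 70 promoters, against 37.9% of 10670 promoters of tested genes and 37.4% of all 32851 promoters. CCGGAAG stood in 34.3%, against 18.6% and 8.86%, and CACGTG in 15.7%, against 10.4% and 7.15%. The other elements were closer to the share in promoters of tested genes: 65.7% against 62.6% for the GC box, 8.57% against 6.88% for the TATA box, 4.29% against 4.68% for YY1, 2.86% against 3.15% for CRE, 4.29% against 5.61% for NRF1 and 1.43% against 1.37% for NF-kB. Over all promoters these shares were 35.7%, 13.6%, 2.75%, 1.79%, 2.71% and 1.25%. The 3 elements whose windows are printed were chosen after these shares were seen. By family, CCAAT was found in 17 of 26 Hnrnp, 3 of 4 Sf3b, 8 of 14 Prpf, 4 of 13 Srsf and 3 of 10 Snrp promoters and in 0 of 3 Sf3a promoters. CCGGAAG was found in all 3 Sf3a, 3 of 4 Sf3b, 6 of 13 Srsf, 4 of 10 Snrp, 4 of 14 Prpf and 4 of 26 Hnrnp promoters. CACGTG was absent from the 13 Srsf promoters, which says only that these letters are not in these windows. The windows shown are upstream of the start site in genes with a log2FC over 1, with Hnrnpul1 as the gene that fell the most, and are written 5' to 3' on the strand of the gene. Capitals mark the matched letters.

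Srsf2, CCAAT, chr11:116853159-116853188, minus strand: cggccgaatgggCCAATcaggagattcatt
Hnrnpab, CCAAT, chr11:51606905-51606934, minus strand: ggttcgctttgcCCAATgagagtatccgtt
Hnrnpab, CCAAT, chr11:51606948-51606977, minus strand: gcgcagaagcagCCAATaagatgctaggac
Prpf31, CCAAT, chr7:3629941-3629970, plus strand: tgtcgtaaacggCCAATcaaaacacagatt
Hnrnpul1, CCAAT, chr7:25754808-25754837, minus strand: cccatgcgctgaCCAATtgagactcgtttt
Srsf7, ETS, chr17:80207505-80207534, minus strand: gcaggagaccgCCGGAAGgccacaggttta
Prpf19, ETS, chr19:10895152-10895181, plus strand: tggagcgctcgCCGGAAGaagccgagccaa
Snrpa, E-box, chr7:27196286-27196315, minus strand: gctcttgaaggtCACGTGatactggcggaa
Snrpa, E-box, chr7:27196327-27196356, minus strand: cctttcccatccCACGTGatagaactcgca
Prpf40b, E-box, chr15:99295038-99295067, plus strand: caggattctgcgCACGTGggggcggggcct

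CCAAT was thus present before genes that rose and before Hnrnpul1, Hnrnpl, Hnrnph1, Hnrnph2, Prpf38b and Prpf8, which fell. It also stood in promoters of Hnrnpk, Hnrnpa2b1, Prpf38a, Sf3b2 and Snrpg, which did not pass. CCGGAAG was also found in the promoter of Prpf6, which fell, and in those of Srsf4, Srsf11, Snrpg, Prpf4b and Sf3b2, which did not pass. CACGTG was also found in the promoter of Hnrnph2, which fell, and in that of Prpf39, which did not pass. The CCGGAAG match of Prpf6 and the CACGTG match of Hnrnph2 lie past the start site. A match to letters is a description and does not show that a factor binds there.

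SR proteins bind exonic enhancer sequences through RNA recognition motifs and contact the splicing machinery through domains rich in arginine and serine. Srsf2 (SC35), a defining protein of nuclear speckles, had the largest log2FC of all 60 genes. Its gene spans chromosome 11 from 116849901 to 116853094 on the minus strand (GRCm38) and has the CCAAT window shown above. Srsf2 was at 9.41, 9.08 and 9.23 log2 CPM in CpG-stimulated replicates 1, 2 and 3 and at 7.70, 7.78 and 7.84 in the unstimulated ones. Every stimulated sample lay more than 1 log2 unit above every unstimulated sample. The means were 9.24 ± 0.16 and 7.78 ± 0.070 (SD, n = 3), a log2FC of 1.46 with a standard error of 0.084, or 2.76-fold (limma FDR = 1.96e-07). Exons of Srsf2 overlap Mettl23 and Mfsd11 on the opposite strand, and the strand setting of the counting is not given in the sources used here.

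Srsf1, Srsf7 and Srsf6 followed, all with groups that did not overlap. Srsf1 (ASF/SF2), the classical SR protein, was at 8.97, 8.70 and 8.97 with CpG and 7.60, 7.73 and 7.75 without, a log2FC of 1.19 ± 0.084 (SE). Srsf7 (9G8), which has a zinc knuckle and takes part in mRNA export, was at 8.85, 8.74 and 8.77 against 7.58, 7.64 and 7.58, a log2FC of 1.19 ± 0.058 (SE). Srsf6 was at 8.65, 8.38 and 8.58 against 7.41, 7.41 and 7.43, a log2FC of 1.12 ± 0.075 (SE). In Srsf1, Srsf2, Srsf6 and Srsf7, and in Srsf3, Srsf5 and Srsf10, the stimulated replicate 2 was the lowest of its group. The limma FDR was 7.04e-07 for Srsf1, 7.33e-08 for Srsf7 and 4.69e-07 for Srsf6. Srsf3 (log2FC 0.87), Srsf10 (0.79) and Srsf5 (0.28) were also higher.

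The remaining SR genes changed little. Srsf9 was at 6.90, 6.88 and 6.85 with CpG and 6.68, 6.72 and 6.74 without, a log2FC of 0.16 ± 0.057 (SE, limma FDR = 0.0277). Its call was lost without stimulated replicate 1 or 3 or unstimulated replicate 1 or 2, with FDR values up to 0.0853. Srsf4, a large SR protein, was at 7.15, 7.20 and 7.17 against 7.29, 7.26 and 7.25, a log2FC of -0.09 with a 95% interval from -0.21 to 0.03 (limma FDR = 0.155). Srsf11, an SR-related protein, was at 8.16, 8.20 and 8.09 against 8.30, 8.34 and 8.23, a log2FC of -0.14 with an interval from -0.27 to -0.0031 (limma FDR = 0.0606). With the replicate number as a block its FDR was 0.0236, and over all alternatives the FDR ran from 0.0236 to 0.205. The intervals of Srsf4 and Srsf11 stayed far from the log2FC of the 4 leading SR genes. Srsf12, the closest relative of Srsf10, did not meet the filter. It was at -2.39 and -1.87 in CpG-stimulated replicates 1 and 2, at the level without reads in replicate 3, and at -2.07, -1.54 and -2.35 in the unstimulated samples. These are near the -2.345 of about 3 reads, and Srsf12 was not tested.

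**Figure D2:**
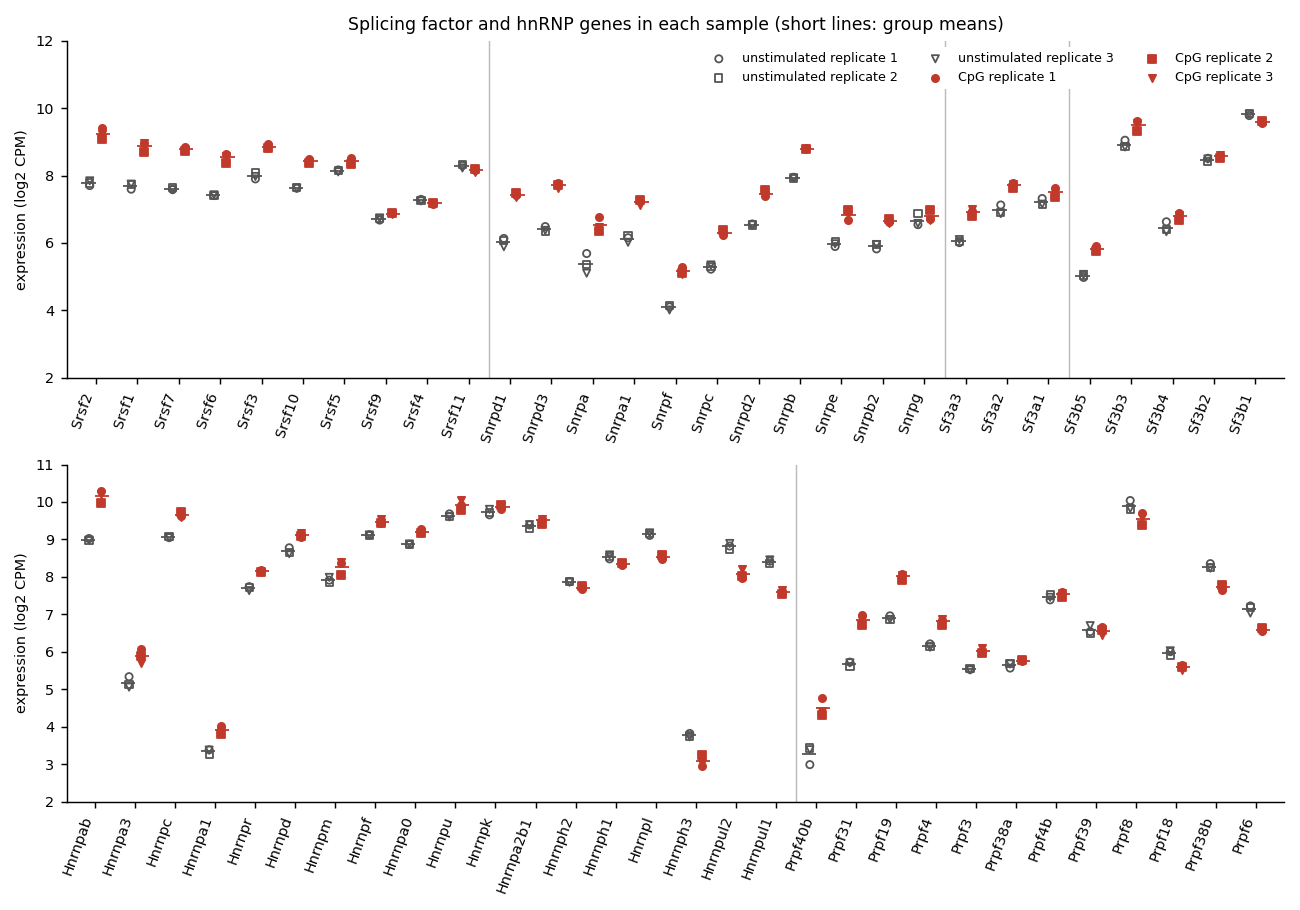
Log2 CPM of the tested genes reported by name in each of the 6 samples, open gray symbols for unstimulated and filled red symbols for CpG-stimulated replicates, with short lines at the group means; gray vertical lines part the prefix families and genes are ordered by log2FC within a family. Red lies above gray on the left of each family, most widely in Srsf and Snrp, and below gray on the right of the Hnrnp and Prpf families.

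The 7 Sm proteins form a ring on U1, U2, U4 and U5 snRNA, and 6 of their 7 genes rose. Snrpd1 was at 7.44, 7.48 and 7.36 log2 CPM with CpG and 6.13, 6.06 and 5.89 without. Snrpd3 was at 7.79, 7.72 and 7.64 with CpG and 6.49, 6.34 and 6.37 without. In both genes the groups stood apart by more than 1 log2 unit, with a log2FC of 1.40 ± 0.075 (SE) for Snrpd1 and 1.32 ± 0.067 (SE) for Snrpd3, on chromosome 10 from 75517551 to 75537381. The limma FDR was 1.25e-07 for Snrpd1 and 8.86e-08 for Snrpd3. Snrpf, the Sm F protein, was at 5.29, 5.12 and 5.09 against 4.10, 4.14 and 4.01, a log2FC of 1.08. Snrpb, which encodes Sm B and B', had the highest mean of the family, not corrected for length, at 8.83, 8.78 and 8.80 against 7.95, 7.91 and 7.94, a log2FC of 0.87 ± 0.054 (SE). Snrpe was at 6.69, 6.97 and 6.85 against 5.89, 6.05 and 5.98, a log2FC of 0.86, and Snrpd2 had a log2FC of 0.92. Groups did not overlap in any of these 6 genes.

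Snrpg, which encodes the Sm G subunit of the same ring, was the exception. It was at 6.72, 6.98 and 6.68 with CpG and 6.54, 6.87 and 6.58 without, so that the groups overlapped and replicate 2 was the highest in each. The log2FC of 0.13 had a 95% interval from -0.11 to 0.36 (limma FDR = 0.291), and the upper bound was below the log2FC of each of the other 6 Sm genes. Within the 3 replicate numbers the differences were 0.18, 0.11 and 0.10, all above 0. With the replicate number as a block the FDR was 0.0446, and over all alternatives it ran from 0.0446 to 0.747. Of all stretches of 75 bases in the Snrpg transcript, 16% also occur in other genes, as do 24% of those of Snrpe and 18.8% of those of Snrpf, so reads from such copies may enter or leave these values.

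Per length of transcript, the Sm genes were far from equal before and after stimulation. On a log2 CPM per kilobase scale their unstimulated levels spanned 3.41, with Snrpf lowest and Snrpb highest at 7.72, and their stimulated levels spanned 3.20, from Snrpf at 5.38 to Snrpb at 8.59. The order of these extremes did not change with CpG. Lengths were those of a chosen annotated transcript of each gene, which need not be the form expressed.

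**Figure D3:**
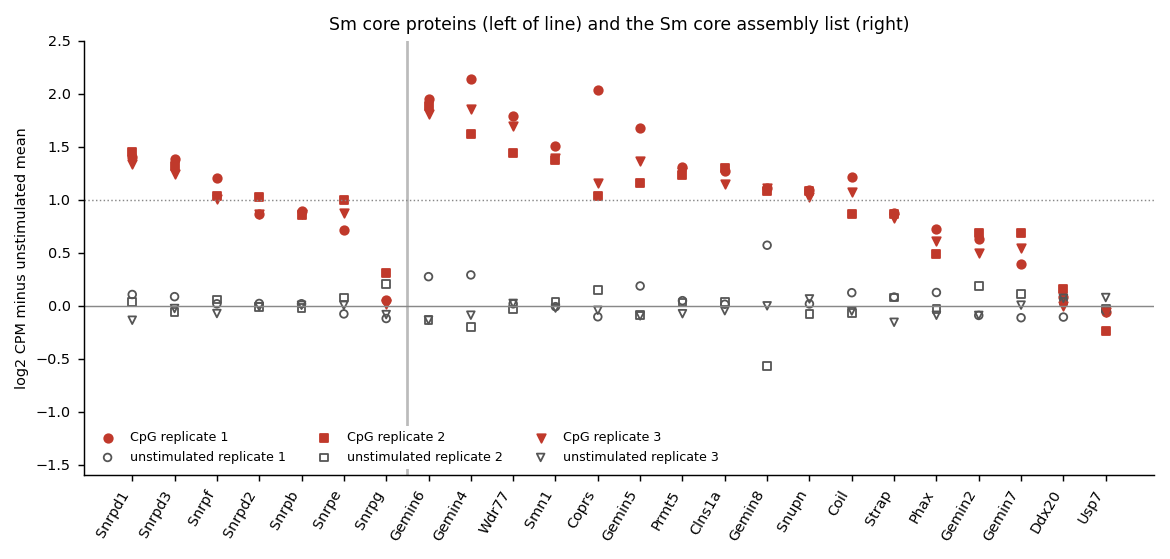
Log2 CPM of each sample minus the mean of the unstimulated samples, for the 7 Sm core genes (left of the gray line) and 17 genes of Sm core assembly (right), with open gray symbols for unstimulated and filled red symbols for CpG-stimulated replicates and a dotted line at a log2 difference of 1. Red stands above gray for 6 Sm genes and 15 assembly genes, whereas Snrpg, Ddx20 and Usp7, which did not pass the test, lie near 0.

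All 4 Snrp genes for proteins particular to U1 or U2 snRNP were higher, with a median log2FC of 1.04. Snrpa, the A protein of U1, which binds a stem loop of U1 snRNA, was at 6.76, 6.35 and 6.47 with CpG and 5.69, 5.36 and 5.10 without. Its gene lies on chromosome 7 from 27187005 to 27196271, minus strand, with the E-box windows shown above. The groups did not overlap, but Snrpa had a larger spread than most, with SDs of 0.21 and 0.29 and a log2FC of 1.14 ± 0.15 (SE, limma FDR = 4.79e-05). Snrpa1, the A' protein of U2, was at 7.26, 7.28 and 7.12 against 6.16, 6.22 and 6.02, a log2FC of 1.09. Snrpb2, its partner in U2, was at 6.63, 6.71 and 6.59 against 5.82, 5.95 and 5.96, a log2FC of 0.74. Snrpc, which steadies the pairing of U1 with the 5' splice site, had a log2FC of 0.9967, just under 1. Snrpn, an imprinted relative of Snrpb best known from brain, was listed at the level without reads in all 6 samples, as was Snurf, with which it shares exons. How the counting treated reads over exons shared by genes is not given in the sources used here, so no level of expression is read from these zeros.

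SF3A and SF3B are the protein assemblies that make U2 snRNP able to hold the branch point. All 3 SF3A genes rose. Sf3a3 was at 6.96, 6.80 and 7.01 with CpG and 6.01, 6.04 and 6.10 without, a log2FC of 0.87 ± 0.072 (SE, limma FDR = 1.93e-06). Sf3a2 was at 7.79, 7.64 and 7.76 against 7.13, 6.91 and 6.87, a log2FC of 0.76 ± 0.079 (SE). Sf3a1 was at 7.64, 7.36 and 7.50 against 7.32, 7.15 and 7.15, a log2FC of 0.29 ± 0.082 (SE, limma FDR = 0.00837). Groups did not overlap in any of the 3, although for Sf3a1 the lowest stimulated and the highest unstimulated value were nearly equal.

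The SF3B genes were split, with 3 higher, Sf3b1 lower and Sf3b2 not passing. Sf3b5, the smallest subunit of the complex named by this prefix, was at 5.90, 5.76 and 5.80 with CpG and 4.98, 5.03 and 5.07 without, a log2FC of 0.79 ± 0.072 (SE, limma FDR = 3.85e-06). Sf3b3 was at 9.63, 9.33 and 9.56 against 9.05, 8.86 and 8.85, a log2FC of 0.59 ± 0.089 (SE). Sf3b4 was at 6.88, 6.68 and 6.82 against 6.63, 6.41 and 6.34, a log2FC of 0.33 ± 0.088 (SE). These 3 rose without overlap between the groups, and 43.2% of the 75-base stretches of Sf3b4 also occur in other genes. Sf3b2 was at 8.61, 8.52 and 8.60 against 8.51, 8.42 and 8.49, a log2FC of 0.10 with an interval from -0.03 to 0.23 (limma FDR = 0.137).

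Sf3b1, whose protein clamps the branch point and is a recurrent target of mutation in blood cancers, had the highest mean of the family, not corrected for length, and fell. It was at 9.56, 9.61 and 9.62 with CpG and 9.78, 9.85 and 9.82 without, a log2FC of -0.22 ± 0.059 (SE, limma FDR = 0.00616). All stimulated samples lay below all unstimulated ones, although the decrease was small. Sf3b6, which contacts the branch point adenosine, is listed under its older symbol 0610009D07Rik and is outside the naming rule. Chosen after its values were seen, it was at 6.54, 6.70 and 6.61 against 5.76, 5.89 and 5.94, a log2FC of 0.75. Of the 9 SF3A and SF3B genes with it included, 7 were higher, 1 was lower and 1 did not pass.

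Prpf genes are named after yeast mutants in pre-mRNA processing and belong to different steps, and 3 of them had a log2FC over 1. Prpf40b, a relative of a yeast U1 snRNP protein, was at 4.77, 4.32 and 4.43 with CpG and 2.99, 3.43 and 3.39 without. It lies on chromosome 15 from 99295087 to 99317018. Its log2FC of 1.24 ± 0.15 (SE, limma FDR = 3.86e-05) had the largest standard error of the 60 genes, and the differences within replicate numbers were 1.79, 0.89 and 1.04. Prpf19, the ubiquitin ligase of the complex that activates the spliceosome, was at 8.09, 7.91 and 8.04 against 6.96, 6.85 and 6.86, a log2FC of 1.12 ± 0.067 (SE, limma FDR = 2.41e-07). Its gene spans chromosome 19 from 10895231 to 10909559.

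Within the tri-snRNP the Prpf genes moved in opposite directions. The U4/U6 proteins rose: Prpf31, Prpf4 and Prpf3 had log2FC values of 1.17, 0.66 and 0.49. Prpf31, a retinitis pigmentosa gene whose protein holds U4 snRNA, was at 6.99, 6.72 and 6.84 with CpG and 5.72, 5.61 and 5.71 without (SE 0.079, limma FDR = 5.31e-07). Its gene lies on chromosome 7 from 3629985 to 3642486 and its exons overlap Gm15927 on the opposite strand. The U5 proteins Prpf6 and Prpf8 fell. Prpf6, which bridges U5 and U4/U6, was at 6.56, 6.65 and 6.56 with CpG and 7.22, 7.18 and 7.03 without, a log2FC of -0.55 ± 0.068 (SE, limma FDR = 3.69e-05). Prpf8, the protein at the heart of the active site, had the highest mean of the family, at 9.70, 9.37 and 9.60 against 10.04, 9.80 and 9.83. Its groups did not overlap, and its log2FC was -0.33 ± 0.096 (SE, limma FDR = 0.00982).

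The other Prpf genes fell moderately or did not pass the test. Prpf38b was at 7.66, 7.78 and 7.76 against 8.35, 8.24 and 8.23, a log2FC of -0.54 ± 0.063 (SE). Prpf18, which acts in the second catalytic step, was at 5.65, 5.59 and 5.52 against 6.0, 5.90 and 6.03, a log2FC of -0.39 ± 0.070 (SE). Both were lower in every stimulated sample. Prpf38a, of the same family as Prpf38b, was at 5.75, 5.79 and 5.75 against 5.57, 5.68 and 5.67, a log2FC of 0.12 with an interval from -0.03 to 0.27 (limma FDR = 0.120). Prpf4b, a kinase that phosphorylates tri-snRNP proteins, was at 7.61, 7.45 and 7.56 against 7.39, 7.52 and 7.45, a log2FC of 0.09 with an interval from -0.06 to 0.24 (limma FDR = 0.238). Prpf39, a U1-associated protein, was at 6.65, 6.58 and 6.46 against 6.54, 6.5 and 6.70, a log2FC of -0.015 with an interval from -0.19 to 0.16 (limma FDR = 0.870). The groups overlapped in Prpf4b and Prpf39.

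hnRNPs coat nascent transcripts and bind short motifs in exons and introns, and their genes were split in direction. Hnrnpab alone among Hnrnp genes had a log2FC over 1. It spans chromosome 11 from 51600100 to 51606847 on the minus strand, behind the CCAAT windows shown above, and was at 10.30, 9.98 and 10.21 with CpG and 9.02, 8.96 and 8.98 without. The stimulated samples stood clear of all unstimulated ones, with a log2FC of 1.17 ± 0.084 (SE, limma FDR = 7.34e-07) or 2.26-fold. Hnrnpab exons overlap Phykpl on the opposite strand. Hnrnpa3 was at 6.07, 5.88 and 5.71 against 5.34, 5.13 and 5.06, a log2FC of 0.72 ± 0.11 (SE). Hnrnpc, which binds runs of U, was at 9.62, 9.73 and 9.59 against 9.05, 9.09 and 9.06, a log2FC of 0.58 ± 0.062 (SE, limma FDR = 1.22e-05).

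Smaller rises were found for Hnrnpa1 (log2FC 0.56), Hnrnpr (0.45), Hnrnpd (0.43), Hnrnpm (0.36), Hnrnpf (0.36), Hnrnpa0 (0.34) and Hnrnpu (0.30). Several of these have close copies in the genome. Of the 75-base stretches of Hnrnpa3, 90.3% also occur in other genes, 39 genes in all, and for Hnrnpf and Hnrnpa1 the shares were 47.0% and 44.4%. Reads from copies could be lost or moved in these genes, and their levels are uncertain. Over the 60 tested genes, 13 shared more than 10% of their stretches with genes elsewhere, 5 of them Hnrnp genes, and 36 shared none.

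A group of Hnrnp genes fell. Hnrnpul1 was at 7.56, 7.55 and 7.65 with CpG and 8.42, 8.35 and 8.45 without, a log2FC of -0.82 ± 0.059 (SE, limma FDR = 7.96e-07), which was the lowest of the 60 genes. Hnrnpul2, its relative, was at 7.96, 8.02 and 8.22 against 8.82, 8.75 and 8.89, a log2FC of -0.76 ± 0.077 (SE, limma FDR = 9.54e-06). Both resemble Hnrnpu in sequence and are known from the response to DNA damage, while Hnrnpu itself was higher. Hnrnph3 was at 2.96, 3.24 and 3.03 against 3.82, 3.75 and 3.73, a log2FC of -0.69 ± 0.11 (SE). No stimulated sample reached an unstimulated one in Hnrnpul1, Hnrnpul2 or Hnrnph3. Exons of Hnrnph3 overlap Rufy2 on the opposite strand.

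Hnrnpl (log2FC -0.61), which binds CA repeats, was lower as well. The G-tract binding proteins Hnrnph1 and Hnrnph2 had log2FC values of -0.19 and -0.16, and their calls were lost under some alternatives. The limma FDR of Hnrnph1, 0.0134, was 0.0590 without unstimulated replicate 3 and 0.129 with female samples only, the highest over its alternatives. That of Hnrnph2, 0.0233, rose to as much as 0.0746 when a sample was left out, with stimulated replicate 2 as the only sample whose removal kept the call, and was 0.135 with female samples only. Hnrnpf, of the same subfamily, was higher.

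Hnrnpk and Hnrnpa2b1 did not pass. Hnrnpk, which binds C-rich RNA and had the highest mean of the family, was at 9.82, 9.93 and 9.88 with CpG and 9.66, 9.71 and 9.80 without. Its log2FC was 0.15 with an interval from 0.0074 to 0.30 (limma FDR = 0.0551, or 0.0263 with the replicate block and 0.0263 to 0.177 over all alternatives). Hnrnpa2b1 was at 9.56, 9.41 and 9.56 against 9.39, 9.30 and 9.40, a log2FC of 0.15 with an interval from 0.0009 to 0.30 (limma FDR = 0.0643, or 0.0224 with the block and 0.0106 to 0.241 over all alternatives). The groups did not overlap in either gene.

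Other genes of the splicing pathway were grouped by role, in 10 lists of 180 tested genes in all. Of these, 99 were higher (55.0%), 36 were lower (20.0%) and 45 did not pass, with a median log2FC of 0.29. Over all genes tested 37.6% were higher and 36.7% lower, with a median of 0.0033.

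**Figure D4:**
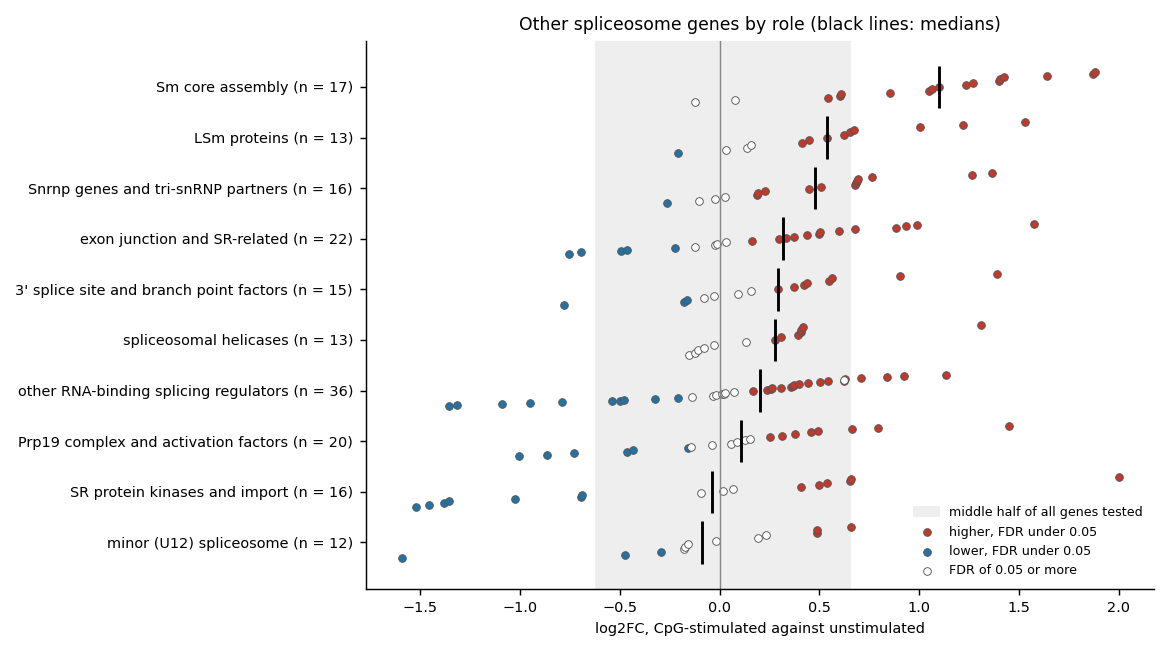
Log2FC of CpG-stimulated against unstimulated B cells for 180 further splicing genes, 1 point per gene in 10 rows by role, with red points higher and blue points lower at an FDR under 0.05, open points not passing, black lines at the medians and a gray band between the quartiles of all genes tested. The Sm core assembly list lies furthest to the right with a median of 1.10, and the SR protein kinase list is spread from -1.52 to 2.0.

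The list for assembly of the Sm ring had the highest median of all families and lists, 1.10, with 15 of 17 genes higher, the other two not passing and 11 over 1. The SMN complex, which loads Sm proteins onto snRNA, was represented by Gemin6 (log2FC 1.88), Gemin4 (1.87), Smn1 (1.43), Gemin5 (1.40) and Gemin8 (1.10). Smn1, the gene lost in spinal muscular atrophy, was at 6.04, 5.91 and 5.93 with CpG and 4.52, 4.57 and 4.51 without, more than 1 log2 unit apart in every comparison of samples. The methylation complex that prepares Sm proteins was represented by Wdr77 (1.64), Coprs (1.41), Prmt5 (1.27) and Clns1a (1.24). Prmt5, the enzyme of that complex, was at 7.58, 7.50 and 7.53 against 6.31, 6.30 and 6.19 (SE 0.062, limma FDR = 7.28e-08). Snupn (1.06), the import adaptor of assembled snRNPs, and Coil (1.05), the marker protein of Cajal bodies, also passed 1. Coprs was at a low level, -0.67 to 1.47 over the 6 samples, and its standard error was 0.33. Ddx20 (0.08) and Usp7 (-0.12) did not pass.

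Among LSm proteins, relatives of the Sm proteins that form the ring of U6 and of RNA decay, 9 of 13 were higher and 1 lower, with a median of 0.54. The 9 include the gene listed as Naa38 (log2FC 0.45), a symbol used both for Lsm8 and for a subunit of an acetyltransferase. Lsm7 (log2FC 1.53), Lsm2 (1.22) and Lsm1 (1.01) passed 1, and Lsm14a (-0.21), a protein of P bodies, was lower. Among Snrnp genes and tri-snRNP partners, 12 of 16 were higher and 1 lower, with a median of 0.48. Nhp2l1 (1.37), which binds U4 snRNA together with Prpf31, and Eftud2 (1.26), the GTPase of U5, led this list. The U5 helicase Snrnp200 (-0.26) was the gene that fell, and it was at 8.28, 8.02 and 8.24 with CpG and 8.51, 8.38 and 8.44 without. U5 proteins were thus found on both sides, with Prpf8, Prpf6 and Snrnp200 lower. Higher were Eftud2 and also Txnl4a (0.76), Snrnp40 (0.68), Cd2bp2 (0.45) and Ddx23 (0.195).

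SR protein kinases and phosphatases, with the import receptors, had the widest range of log2FC of the 10 lists. Of 16 genes 6 were higher and 7 lower, with a median of -0.04, and 5 had a log2FC under -1. These are 37.5% higher and 43.8% lower, against 37.6% and 36.7% of all genes tested. Srpk3 (-1.52), Srpk2 (-1.36), Clk1 (-1.45), Dyrk1b (-1.38) and Dyrk1a (-1.02) fell the most. Clk1, a nuclear kinase that phosphorylates SR proteins, was at 7.39, 7.87 and 7.48 with CpG and 9.01, 9.02 and 9.07 without (SE 0.11, limma FDR = 9.90e-07). All stimulated samples were more than 1 log2 unit below the unstimulated ones. Srpk1, the main cytoplasmic SR protein kinase, rose instead, from 6.45, 6.43 and 6.49 to 6.95, 6.95 and 6.97, a log2FC of 0.50. Dyrk3, which dissolves nuclear speckles during mitosis, had a log2FC of 2.0. Tnpo3, the import receptor of SR proteins, was higher at 0.54. Srpk1 and Tnpo3 were singled out after their values were seen.

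The list of U2AF and other 3' splice site factors had 8 of 15 genes higher, 3 lower and a median of 0.29, with Rbm17 at 1.39 and Rbm39 at -0.78. The other lower genes, Sf1 and Smndc1, named after their values were seen, lay close to the threshold with limma FDR values of 0.0492 and 0.0464. Spliceosomal helicases had 7 of 13 higher and 6 that did not pass, with Ddx39 (listed under its older symbol, now Ddx39a) at 1.31 and Dhx16 at -0.15. With the replicate block 2 of them were lower. Exon junction complex and SR-related proteins had 13 of 22 higher and 5 lower, with Magohb at 1.58 and Luc7l2 at -0.75. The Prp19 complex and activation factors had 8 of 20 higher and 6 lower, with Ppil1 at 1.45 and Syf2 at -1.0.

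The minor spliceosome removes the rare U12-type introns. Of 12 such genes 3 were higher and 3 lower, 25% each against 37.6% and 36.7% of all genes tested, with a median of -0.09, and Zrsr1 was the lowest at -1.59. It was at 2.96, 3.31 and 2.87 with CpG and 4.65, 4.69 and 4.57 without. Zmat5 was the highest at 0.66. Of 36 other RNA-binding splicing regulators 18 were higher and 10 lower with a median of 0.20. Those are 50.0% and 27.8%, against 37.6% and 36.7% of all genes tested. Syncrip (1.13), an hnRNP by relation though not by symbol, rose the most, and Mbnl2 (-1.36), Rbm5 (-1.32) and Esrp2 (-1.09) fell. Esrp2 was at a low level, -1.33 to 1.14 over the 6 samples, and its standard error was 0.42 (limma FDR = 0.0363). Hnrpdl and Hnrpll, hnRNP genes spelled without the second n, had log2FC values of 0.51 (higher) and 0.62 (limma FDR = 0.167, not passed).

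A difference in response between female and male samples passed the test in 0 of the 60 genes and 0 of all genes tested (interaction FDR under 0.05, limma), and 0 of the 60 had an unadjusted p under 0.05. With 1 male sample per group, that comparison has little precision. It was also fitted without the replicate number, so shifts shared by same-numbered samples stayed in its error. Stimulated replicate 2, the sample with the high erythroid markers, was the lowest of its group in 32 of the 60 genes, where this held for 41.7% of all tested genes. Stimulated replicate 1 was the highest in 31 of the 60, against 37.6% of all tested genes. The part of erythroid RNA in these values was not tested. Without stimulated replicate 2, 41 genes were higher and 12 lower, against 40 and 11 with it.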

How the data were processed

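RNA-seq values of 6 samples were used, 3 CpG-stimulated and 3 unstimulated. Per the labels and methods, the authors checked reads with FastQC 0.11.7, trimmed them with Trim Galore 0.6.5, aligned them to mm10 with STAR 2.6.1a, counted them with featureCounts (Subread 2.0.1) and applied quantile normalization and voom in limma. The deposited values are log2 CPM, in which raw counts and library depth are no longer held. Normalization could thus shift a change shared by most genes. Some values carry a shift by replicate number, such as Rbfox3 at -5.235, -5.235 and -4.985 in replicates 1, 2 and 3 of both groups. How that shift arose is not given in the sources used here. From these, limma 3.58.1 (R 4.3.3) was fitted to the groups without a block, with a variance trend and Benjamini-Hochberg adjustment over all 11233 genes above the filter. Tables and figures were made in Python 3.11.15 with pandas 2.3.3, scipy 1.17.1 and matplotlib 3.10.9. Positions are from GENCODE (GRCm38) and promoters from RefSeq. The test was checked on simulated data.

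The members and lists were chosen with earlier results of these data known. Named with values were members with a log2FC beyond 1 in either direction, those that did not pass, the 3 highest and 3 lowest log2FC of each larger family, all of smaller families and the highest mean of each; other members have their log2FC, except 1 that enters the counts and medians but is not reported here by name, and lists their genes beyond 1, or else the highest and lowest. Same-numbered samples of the groups deviated together, with correlations of 0.435, 0.224 and 0.300. A shift common to each replicate number in the deposited values also gives such correlations, so blocked values are printed where they change a call. Alternatives covered the filter, pseudocount, variance model, block, centring, female samples and each sample left out.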

Additional observations from a re-analysis of the deposited data

Results flagged for a closer look

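Prpf39, for which no change was called, moved in opposite directions in the female and male samples. The CpG minus unstimulated log2 difference was 0.116 and 0.078 in the female replicates 1 and 2 and -0.239 in the male replicate 3. The male minus female difference of -0.336 did not pass the limma interaction test (unadjusted p = 0.0660, FDR = 1), and there was 1 male sample per group.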

How the results depend on the processing

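Of 840 values of single genes under alternatives, 812 kept their direction and side of the threshold, and so did 414 of 426 counts and medians. Against a log2FC of 0.5 (limma treat) 24 members were higher and 2 lower, in place of 40 and 11, since that test asks for a larger change. With samples left out, members higher ran from 39 to 41 and lower from 9 to 12. The lower genes of the U2AF list went from 3 to 1 with no filter, with no variance trend and with female samples only, and ran from 1 to 2 with samples left out. With female samples only, the lower genes of the Snrnp and LSm lists went from 1 to 0, and those of the LSm list ran from 0 to 1 with samples left out. With the replicate block 2 helicases were lower in place of 0, 43 members were higher and 12 lower, and beyond Snrpg, Hnrnpk, Hnrnpa2b1 and Srsf11 no other member changed its call. The log2FC of Prpf39 changed sign, to 0.097 with female samples only, and ran from -0.061 to 0.045 with samples left out (0.037 without CpG-stimulated replicate 3). With female samples only, 36 members were higher and 8 lower, and 7 lost their calls: Srsf9, Hnrnph1, Hnrnph2, Sf3b1, Hnrnpu, Sf3a1 and Sf3b4; the cause of these changes was not tested.

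Sample depth is not in the values, so counting error per gene could not be given. With 3 samples a group, an exact permutation test of a single gene could not go below p = 0.1.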
